A study of Mus musculus with 21 samples.

Results

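Laminin chains and integrin subunits were followed through 4 stages of mouse pluripotency in 21 RNA-seq libraries. The members were all rows of the count table whose gene symbol is that of a laminin α, β or γ chain (Lama, Lamb, Lamc) or of an integrin α or β subunit (Itga, Itgb). They came to 38 of 39396 genes, namely 11 laminin chains and 27 integrin subunits, of which 18 are α and 9 are β. The integrin-binding and integrin-like genes Itgb1bp1, Itgb1bp2, Itgb3bp and Itgbl1 were left out. Of the members, 34 passed the filter on low counts and were tested among 16575 genes. The other 4, Itgad, Itgax, Itgb6 and Itgb2l, had at most 0.167 CPM in any library, and Itgb2l had no count anywhere. CPM are counts scaled to the library size after adjustment of the library size by the trimmed mean of M values (TMM).

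There were 7 groups of 3 libraries. Ground-state embryonic stem cells of the line D3 and of the line A2 grew in serum medium with 1000 U/mL leukaemia inhibitory factor (LIF) and 2i, the usual name for a pair of kinase inhibitors. Naive cells of each line were ground-state cells kept for 4 days after 2i was taken away. EPL cells of each line, a population resembling early primitive ectoderm, were ground-state cells cultured for 4 days in serum with 400 uM L-proline and less LIF, 330 U/mL. Epiblast stem cells (EpiSCs) existed for A2 only. They were recovered after A2 cells had been placed into a pseudopregnant mouse and were then grown with activin A and bFGF in serum replacement medium, so stage, medium and passage through an animal cannot be told apart in that group. The comparisons ask how expression differs along the pluripotency continuum and between the lines. The labels do not say that libraries of 1 group came from different cultures, and the spread behind each p-value may therefore be technical.

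A laminin is a secreted trimer of 1 α, 1 β and 1 γ chain that assembles into the sheet of the basement membrane. An integrin is a membrane dimer of 1 α and 1 β subunit that ties the matrix to the actin cytoskeleton through talin, kindlin and other adaptors. In the early mouse embryo, laminin made up of α1, β1 and γ1 chains is part of the first basement membranes, under the epiblast and along the trophectoderm, and the β1 integrin subunit is needed for the inner cell mass to survive implantation. Transcripts of the chains say nothing of how much trimer or dimer is formed.

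Promoter windows are shown for 5 members whose levels separate ground-state cells from naive and EPL cells. These include the β chains Lamb1 and Lamb2, which moved in opposite directions, and the vitronectin receptor subunits Itgav and Itgb5, which fell together. The last is Itgb7, which rose. The windows come from RefSeq on GRCm38.p6, run 5′ to 3′ on the strand of the gene and hold 250 bases before and 50 bases after the annotated start. Capitals mark every match, on either strand, to GATAA (bound by factors of the Gata family), TGANTCA (AP-1), GGGCGG (GC box), CACCC (bound by Krüppel-like factors), CTTTG (core of TCF/LEF and SOX sites), ATGCAAA (octamer) or TATAAA (a core promoter element). The Lamb1 window is chr12:31265043-31265342, plus strand, and the Lamb2 window is chr9:108479612-108479911, plus strand. The Itgav window is chr2:83724147-83724446, plus strand, the Itgb5 window is chr16:33829415-33829714, plus strand, and the Itgb7 window is chr15:102231886-102232185, minus strand.
Lamb1: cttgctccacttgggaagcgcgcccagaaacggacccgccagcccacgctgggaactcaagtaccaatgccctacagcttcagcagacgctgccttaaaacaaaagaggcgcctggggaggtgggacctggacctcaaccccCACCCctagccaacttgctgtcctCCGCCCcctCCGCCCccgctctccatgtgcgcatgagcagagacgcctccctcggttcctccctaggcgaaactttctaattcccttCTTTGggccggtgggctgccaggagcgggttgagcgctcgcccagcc
Lamb2: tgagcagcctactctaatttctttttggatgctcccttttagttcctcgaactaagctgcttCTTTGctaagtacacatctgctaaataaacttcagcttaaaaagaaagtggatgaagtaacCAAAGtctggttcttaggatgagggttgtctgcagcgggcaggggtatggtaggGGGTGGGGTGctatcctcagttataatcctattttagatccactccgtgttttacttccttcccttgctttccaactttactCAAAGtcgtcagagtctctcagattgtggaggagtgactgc
Itgav: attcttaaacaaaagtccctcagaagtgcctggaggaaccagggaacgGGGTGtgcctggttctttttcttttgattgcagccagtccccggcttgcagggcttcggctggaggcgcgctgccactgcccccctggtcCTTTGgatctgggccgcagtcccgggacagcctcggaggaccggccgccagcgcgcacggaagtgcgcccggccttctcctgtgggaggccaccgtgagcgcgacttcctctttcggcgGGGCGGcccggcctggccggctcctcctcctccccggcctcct
Itgb5: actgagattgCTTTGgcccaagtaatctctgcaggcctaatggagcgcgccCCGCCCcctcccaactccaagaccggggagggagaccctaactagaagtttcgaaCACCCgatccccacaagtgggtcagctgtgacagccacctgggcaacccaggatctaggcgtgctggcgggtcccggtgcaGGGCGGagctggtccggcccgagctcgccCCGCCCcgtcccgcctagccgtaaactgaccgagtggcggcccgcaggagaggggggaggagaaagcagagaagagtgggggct
Itgb7: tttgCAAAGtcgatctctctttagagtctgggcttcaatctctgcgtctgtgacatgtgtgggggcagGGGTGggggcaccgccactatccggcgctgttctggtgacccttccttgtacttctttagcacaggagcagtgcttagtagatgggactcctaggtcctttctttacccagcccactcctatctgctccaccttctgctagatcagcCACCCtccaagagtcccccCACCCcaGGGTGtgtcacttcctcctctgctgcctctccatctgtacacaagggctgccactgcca

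The Lamb1 window had 2 GC boxes, 1 CACCC box and 1 CTTTG, with 63.7% G and C. The Lamb2 window had no GC box, 2 CACCC boxes and 3 CTTTG, with 44% G and C. The Itgb5 window held 3 GC boxes and the Itgav window 1, while the Itgb7 window held none and had 4 CACCC boxes. RefSeq windows were found for 24 of the 38 members, in 27 entries. Lama1, Lamc1 and Itga6 were among those with no entry. A GC box was in 12 of these 27 windows (44.4%) and in 35.7% of all 32851 windows, a CACCC box in 17 (63%) and in 57.5%, and CTTTG in 15 (55.6%) and in 53.9%. TGANTCA was in 3 (11.1%) and in 7.81%, GATAA in 2 (7.41%) and in 25.4%, ATGCAAA in 1 (3.7%) and in 4.63%, and TATAAA in 0 and in 13.6%. A match to such short letters is a description of the window and does not show that a factor binds.

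Total counts per library ranged from 15320599 to 23490527, and the members took between 0.138% and 0.437% of them. In 5 of the 7 groups 1 library stood apart, meaning that both of its chi-square values per degree of freedom with the other libraries of the group were at least 2 times that between those others. These were A2 EpiSC library 3, D3 EPL library 3, A2 EPL library 1, D3 naive library 2 and A2 naive library 2. With all 5 left out, the number of members called was 24 in naive against ground, 24 in EPL against ground, 21 in EPL against naive, and 29 in EpiSC against EPL and against ground, set beside 24, 23, 21, 28 and 28 with every library. Reads of Itgam and of the overlapping gene Gm49368, which covers 68.7% of the Itgam exon bases on the same strand, may have been split in counting, as may those of Itga10 and Gm42957 (33.5%), so the values of Itgam and Itga10 are uncertain.

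The members covered a wide range of levels. Of the 38, 30 reached a mean of 2 CPM in at least 1 group and 16 did so in every group. Levels of different genes were compared per length, as CPM per kilobase of exon (RPKM). Lamc1, the γ chain of nearly all early embryonic laminins, led its class in every group. Lama5, an α chain of epithelial and vascular basement membranes, came before Lama1 throughout, with shares of the α chain RPKM between 54.1% in A2 EpiSCs and 77.8% in D3 EPL cells. The libraries of Lama5 and Lama1 overlapped in A2 EpiSCs and in D3 naive cells, so the order of these neighbours is not settled there. Among β integrins, Itgb1 held 56.0% of the class in A2 ground-state cells and up to 83.7% in A2 EpiSCs, and no library of another β subunit reached it. Among α integrins Itga6, which joins β1 or β4 to form laminin receptors, led in the ground state with 14.2 ± 0.522 RPKM in D3 and 19.8 ± 0.414 RPKM in A2 (SD, n = 3 each). Its libraries overlapped those of Itga5, the fibronectin receptor subunit, in D3 naive and A2 EPL cells. In A2 EpiSCs Itga5 led with 40.8 ± 4.06 RPKM, above Itga3 at 19.4 ± 6.19 and Itga6 at 19.4 ± 0.328 RPKM, and the last pair overlapped.

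**Figure D1:**
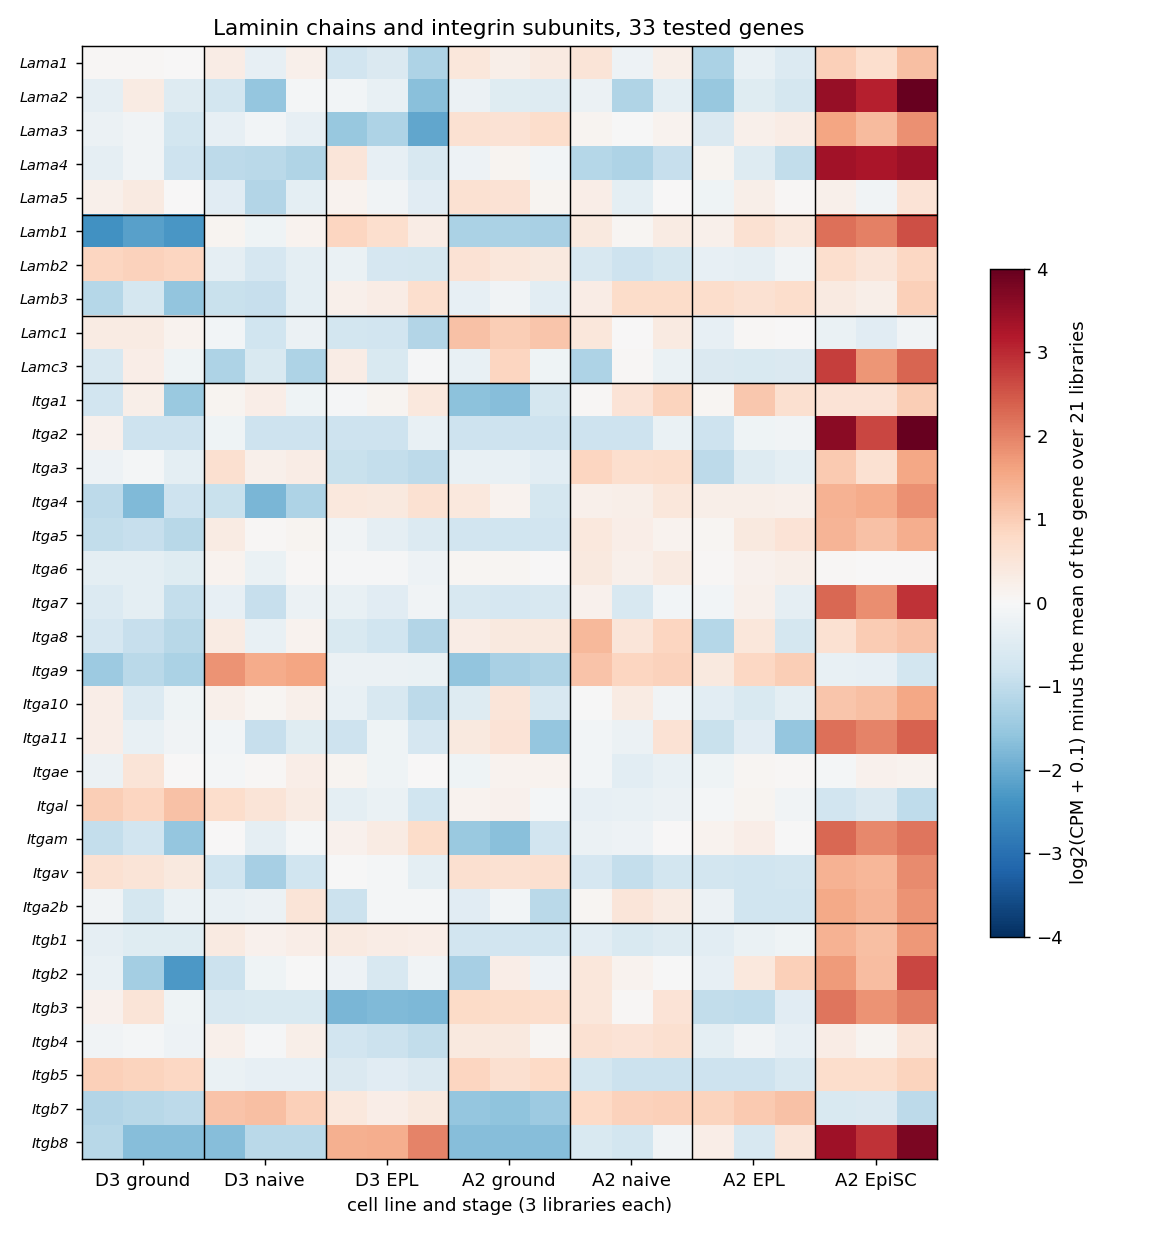
Levels of 33 tested laminin chains and integrin subunits (rows) in 21 libraries (columns, grouped by line and stage), as log2(CPM + 0.1) minus the mean of each gene; red is above and blue below that mean. The A2 EpiSC columns are the reddest for most rows, Lamb1 is blue in both ground-state groups, and Itga9 and Itgb7 are red in naive cells.

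After 4 days without 2i, Lamb1, Itga9, Itgb7 and Itga5 were higher and Lamb2, Itgav and Itgb5 lower, each by 2-fold or more. In naive against ground-state cells, averaged over both lines, 14 of 34 tested members were called higher and 10 lower at an adjusted p below 0.05 (edgeR quasi-likelihood test, Benjamini-Hochberg adjustment over all genes). Among all 16575 genes 31.7% were higher and 31.8% lower. The median log2 difference was 0.27 over the members and 0.01 over all genes. By class, 2 of 11 laminin chains were higher and 6 lower, 8 of 16 α integrins were higher and 2 lower, and 4 of 7 β integrins were higher and 2 lower. In such bulk samples, fewer cells that express a gene and less RNA per cell cannot be told apart.

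The β chains of laminin moved apart. Lamb1, the β chain of the laminins of the early embryo, had 91.5, 75.0 and 92.8 CPM in D3 naive and 111, 88.7 and 105 CPM in A2 naive libraries, against 15.5, 18.8 and 16.5 CPM in D3 ground and 35.4, 34.8 and 34.3 CPM in A2 ground libraries. Every naive library lay above every ground-state library, and the log2 difference was 1.95 ± 0.11 (SE; adjusted p = 4.65e-13). Lamb2, which replaces Lamb1 in the laminins of the neuromuscular junction and kidney filter, had 29.0, 23.6 and 28.8 CPM in D3 naive and 23.99, 20.9 and 22.9 CPM in A2 naive libraries, against 68.4, 71.1 and 68.0 CPM in D3 ground and 56.1, 51.6 and 48.8 CPM in A2 ground libraries. All naive libraries were below all ground-state libraries, with a log2 difference of -1.28 ± 0.08 (adjusted p = 2.5e-12). Per length, the ratio of Lamb1 to Lamb2 was therefore 1.95 ± 0.022 in D3 naive and 2.75 ± 0.13 in A2 naive cells, against 0.150 ± 0.012 in D3 ground and 0.411 ± 0.023 in A2 ground cells (SD, n = 3 each). The sum of the β chains, in contrast, was 13.3 ± 1.53 RPKM in D3 naive and 14.3 ± 1.37 RPKM in A2 naive cells, against 13.2 ± 0.463 RPKM in D3 ground and 12.3 ± 0.669 RPKM in A2 ground cells. Lamb2 held 86.4% of that sum in D3 and 70.0% in A2 ground-state cells, and Lamb1 held 65.5% and 71.7% of it in naive cells of those lines.

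The main γ chain, Lamc1, fell. It had 635, 397 and 581 CPM in D3 naive and 940, 688 and 878 CPM in A2 naive libraries, against 861, 860 and 759 CPM in D3 ground and 1531, 1360 and 1465 CPM in A2 ground libraries. Within each line the naive libraries were all below the ground-state ones, and the log2 difference was -0.71 ± 0.11 (adjusted p = 3.76e-06). Among chains of epithelial laminins, Lama3 did not pass the test as a mean of both lines (log2 difference -0.24 ± 0.15, adjusted p = 0.179). Lamb3 rose as such a mean (0.69 ± 0.21, adjusted p = 0.00672). It had 0.783 ± 0.186 CPM in D3 naive and 2.09 ± 0.361 CPM in A2 naive cells, against 0.577 ± 0.204 CPM in D3 ground and 1.08 ± 0.123 CPM in A2 ground cells. In A2 alone Lama3 was called lower (-0.57 ± 0.21, adjusted p = 0.0248) and Lamb3 higher (0.96 ± 0.26, adjusted p = 0.00337). In D3 alone neither passed (adjusted p = 0.774 for Lama3 and 0.305 for Lamb3). Of the main α chains, Lama5 fell by 0.64 ± 0.15 (adjusted p = 0.000568), although in A2 alone the difference of -0.46 ± 0.21 did not pass (adjusted p = 0.0674). Lama1, the α chain of the first embryonic basement membranes, had a log2 difference of -0.05 ± 0.15 (adjusted p = 0.773), whose sign depended on the libraries used.

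**Figure D2:**
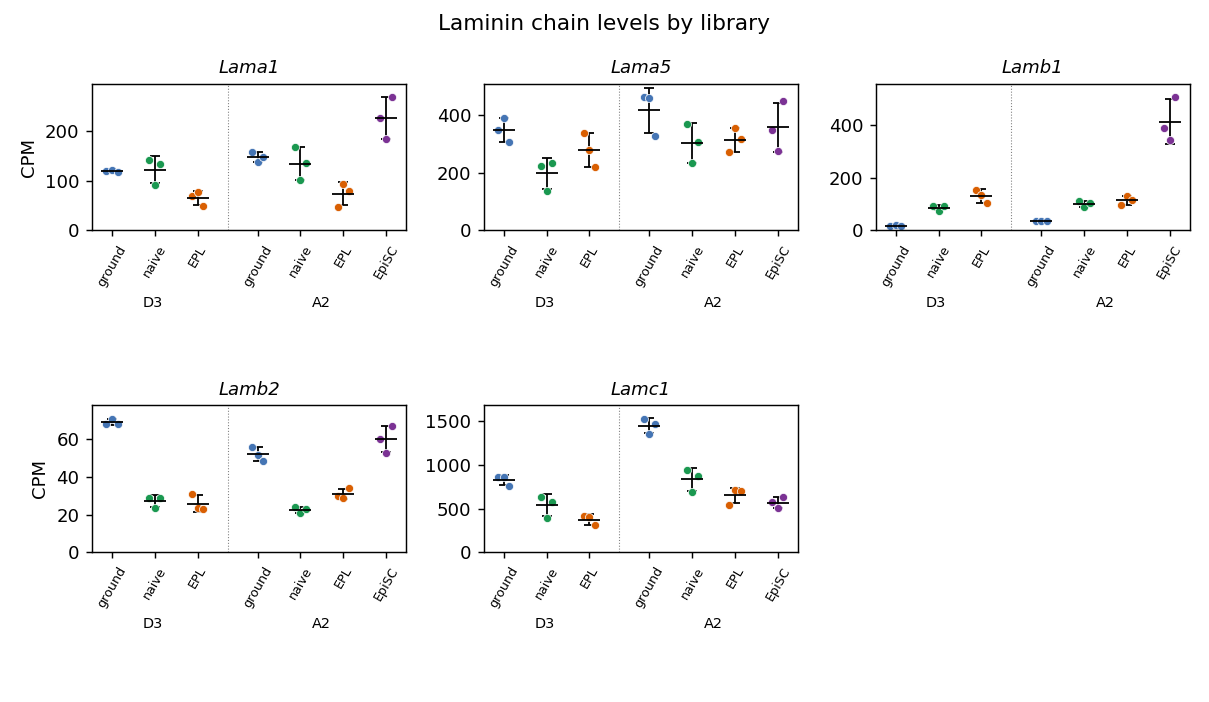
CPM of 5 laminin chains in each library (points), by stage within the lines D3 and A2, with the group mean and SD (bars, n = 3); each panel has its own axis from 0. Lamb1 is lowest in the ground state of both lines and highest in EpiSCs, Lamb2 shows a dip in naive and EPL cells, and Lamc1 is highest in the ground state of each line.

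Several receptor subunits rose, Itga9 and Itgb7 among them, and those of the vitronectin receptor fell. Itga9, whose dimer with β1 binds tenascin and other ligands, had 51.2, 41.7 and 43.6 CPM in D3 naive and 32.4, 26.8 and 27.9 CPM in A2 naive libraries, against 5.32, 6.88 and 6.02 CPM in D3 ground and 4.87, 5.91 and 6.25 CPM in A2 ground libraries. Itgb7, known as the partner of Itga4 and Itgae on lymphocytes, had 39.1, 40.8 and 34.3 CPM in D3 naive and 30.3, 33.6 and 34.1 CPM in A2 naive libraries, against 7.70, 7.99 and 8.43 CPM in D3 ground and 5.96, 5.69 and 6.36 CPM in A2 ground libraries. Neither gene had any overlap between the stages, and the log2 differences were 2.63 ± 0.11 for Itga9 and 2.34 ± 0.08 for Itgb7 (adjusted p = 1.8e-15 and 1.12e-16). The known partners of Itgb7 stayed low: Itgae had 0.448 ± 0.0552 RPKM and Itga4 0.0268 ± 0.0105 RPKM in D3 naive cells, beside 13.7 ± 1.22 RPKM of Itgb7. Neither partner passed the test in this comparison (adjusted p = 0.249 for Itgae and 0.798 for Itga4).

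Itga5 rose by 1.11 ± 0.08 on the log2 scale (adjusted p = 4.83e-11), to 89.8 ± 9.58 CPM in D3 naive and 96.5 ± 9.43 CPM in A2 naive cells, against 39.9 ± 2.52 CPM in D3 ground and 46.5 ± 0.919 CPM in A2 ground cells. Smaller rises were those of Itga3, a laminin receptor subunit (0.84 ± 0.12, adjusted p = 2.76e-06), Itgb1 (0.48 ± 0.07, adjusted p = 1.83e-06) and Itga6 (0.33 ± 0.06, adjusted p = 3.27e-05). Itgav had 23.3, 16.3 and 23.6 CPM in D3 naive and 25.4, 21.0 and 24.3 CPM in A2 naive libraries, against 61.9, 58.8 and 53.5 CPM in D3 ground and 62.8, 61.9 and 63.3 CPM in A2 ground libraries. Its partner Itgb5 had 41.8, 40.8 and 40.3 CPM in D3 naive and 31.1, 27.6 and 28.2 CPM in A2 naive libraries, against 98.1, 94.6 and 90.4 CPM in D3 ground and 92.3, 79.8 and 89.1 CPM in A2 ground libraries. For both genes all naive libraries were below all ground-state libraries. The log2 differences were alike, at -1.44 ± 0.10 for Itgav and -1.40 ± 0.06 for Itgb5 (adjusted p = 1.55e-11 and 1.21e-15).

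Genes around the laminins and integrins moved in both directions. The counts below stand beside 31.7% higher and 31.8% lower over all genes. Of 18 basement membrane partners, 9 were higher in naive cells and 6 lower. Among them Frem2 (2.31 ± 0.18), Col4a1 (2.01 ± 0.16) and Col4a2 (1.71 ± 0.21), the last pair being the main chains of collagen IV, were higher, and Egfl6, an integrin ligand of basement membranes, was lower (-1.91 ± 0.14). Of 15 tested ligands of other integrins 5 were higher, with Tgfb1 at 1.70 ± 0.09, and 6 lower, with Mfge8, a ligand of αv integrins, at -1.24 ± 0.06 and Fn1, fibronectin, at -1.15 ± 0.12. Fn1 averaged 576 CPM in D3 naive and 948 CPM in A2 naive cells, against 1431 CPM in D3 ground and 1878 CPM in A2 ground cells. Of 22 adhesion adaptors 9 were higher and 12 lower, led by the kinase Src (-1.51 ± 0.05) and the docking protein Bcar1 (1.08 ± 0.05). Of 8 laminin receptors outside the integrins 1, Bcam, was higher (0.90 ± 0.06) and 6 were lower. Of 6 tetraspanins, membrane proteins that bind integrins, 1 was higher and 3 were lower, with Cd63 at -1.36 ± 0.08.

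In EPL against ground-state cells, 11 of 34 tested members were called higher and 12 lower, where 33.1% of all genes were higher and 33.2% lower. The median log2 difference was -0.22 over the members and 0.00 over all genes. Lamb1 was again the laminin chain with the highest rise. It had 154, 135 and 103 CPM in D3 EPL and 96.5, 130 and 113 CPM in A2 EPL libraries, against the 15.5 to 18.8 CPM of D3 ground and 34.3 to 35.4 CPM of A2 ground libraries. No libraries overlapped, and the log2 difference was 2.32 ± 0.11 (adjusted p = 1.4e-14). Lamb3 rose by 1.33 ± 0.19 from a low level, with 1.80 ± 0.334 CPM in D3 EPL and 2.20 ± 0.0676 CPM in A2 EPL cells against 0.577 and 1.08 CPM in D3 and A2 ground cells (adjusted p = 2.5e-06).

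Other laminin chains were lower in EPL cells. Lamc1 fell by 1.15 ± 0.11 (adjusted p = 2.05e-09), Lamb2 by 1.09 ± 0.08 (adjusted p = 2.67e-11) and Lama1 by 0.94 ± 0.15 (adjusted p = 7.17e-06). Lama5 had a log2 difference of -0.36 ± 0.15 (adjusted p = 0.0321), a call that did not pass in either line alone. With Lamb1 higher and Lamc1 lower, the ratio of Lamc1 to Lamb1 per length was 3.45 ± 0.19 in D3 EPL and 6.89 ± 0.43 in A2 EPL cells, against 58.8 ± 6.7 in D3 ground and 50.01 ± 2.7 in A2 ground cells.

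**Figure D3:**
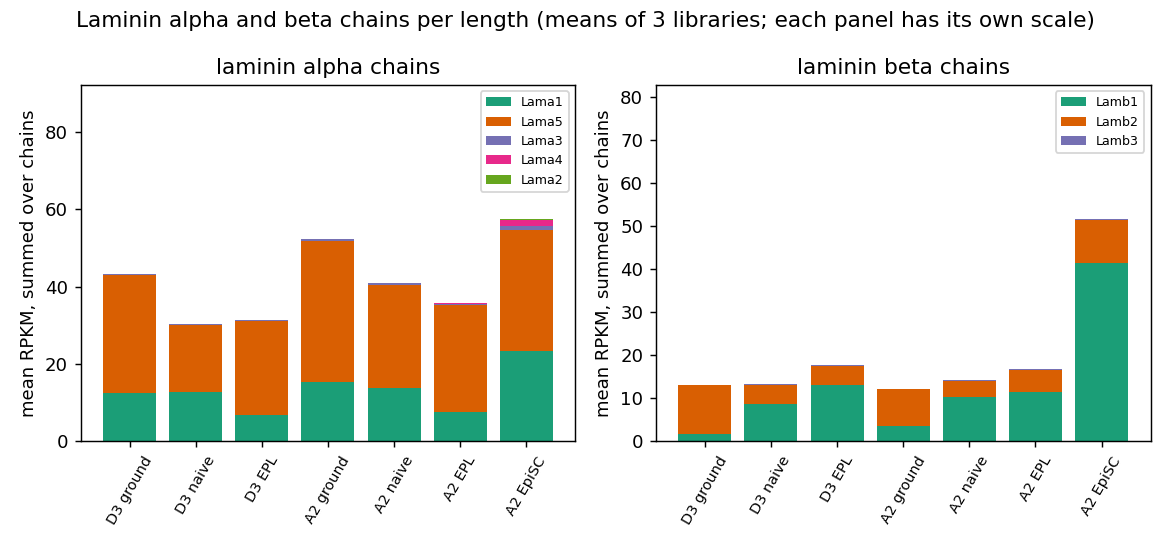
Mean RPKM of the laminin α and β chains, stacked within each class, for the 7 groups by line and stage (n = 3 libraries each). The β class changes from mostly Lamb2 in the ground state to mostly Lamb1 in naive, EPL and EpiSC groups; panels have separate axes from 0.

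Among integrins, Itgb7 and Itga9 rose and Itgb3, Itgb5 and Itgav fell in EPL cells relative to the ground state. Itgb7 was higher by 2.04 ± 0.08 on the log2 scale (adjusted p = 9.14e-16), Itga9 by 1.57 ± 0.11 (adjusted p = 1.88e-11), Itga5 by 0.89 ± 0.08 (adjusted p = 1.76e-09), Itgb1 by 0.62 ± 0.07 (adjusted p = 3.12e-08) and Itga6 by 0.20 ± 0.06 (adjusted p = 0.00387). In A2 alone Itga6 did not pass, at 0.09 (adjusted p = 0.375). Itgb5 was lower by 1.49 ± 0.06 (adjusted p = 2.72e-16) and Itgav by 1.03 ± 0.10 (adjusted p = 2.72e-09). Itgb3, which pairs with αv or with αIIb on platelets, had 1.297, 1.35 and 1.33 CPM in D3 EPL and 2.36, 2.35 and 3.50 CPM in A2 EPL libraries, against 5.42, 6.88 and 4.27 CPM in D3 ground and 8.18, 8.07 and 7.88 CPM in A2 ground libraries. All EPL libraries lay below all ground-state libraries, with a log2 difference of -1.81 ± 0.14 (adjusted p = 8.08e-11). Itga3 was lower in EPL cells (-0.52 ± 0.13, adjusted p = 0.000946), where it had been higher in naive cells, but in A2 alone this difference did not pass. Itgam rose by 1.57 ± 0.19 (adjusted p = 1.53e-07), to 2.25 ± 0.471 CPM in D3 EPL and 1.82 ± 0.19 CPM in A2 EPL cells, with the doubt over its overlapping gene given above.

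The surrounding lists again held calls in both directions in EPL against ground-state cells. Over all genes 33.1% were higher and 33.2% lower. Of 18 basement membrane partners 9 were higher and 6 lower, with Frem2 at 3.33 ± 0.17 and Col4a1 at 2.40 ± 0.16 among the higher and Egfl6 at -3.49 ± 0.17 and Nid1, the nidogen that links laminin to collagen IV, at -2.52 ± 0.11 among the lower. Nid1 averaged 47.9 CPM in D3 EPL and 112 CPM in A2 EPL cells, against 401 CPM in D3 ground and 438 CPM in A2 ground cells. Of 15 other ligands 6 were higher and 5 lower, with Spp1, osteopontin, at -2.10 ± 0.05 and Mfge8 at -1.95 ± 0.06. Of 22 adaptors 6 were higher and 8 lower, and Fermt1, the epithelial kindlin, had the largest difference of the list at 4.35 ± 0.18, with 10.7 CPM in D3 EPL and 5.23 CPM in A2 EPL cells against 0.284 CPM in D3 ground and 0.456 CPM in A2 ground cells. Of 8 laminin receptors outside the integrins 3 were higher and 4 lower, and of 6 tetraspanins 1 was higher and 3 lower, with Cd9 at -1.33 ± 0.07.

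Set directly against naive cells, EPL cells had lower levels of the integrin subunits Itga3, Itgb3 and Itga8 and of the laminin chains Lama1 and Lamc1. Here 7 of 34 tested members were called higher and 14 lower, where 27.1% of all genes were higher and 24.1% lower, and the median log2 difference was -0.11 over the members and 0.01 over all genes. Within A2 alone 8 members were called and within D3 alone 21. Itga3 had 27.4, 26.2 and 24.5 CPM in D3 EPL and 24.6, 36.0 and 38.7 CPM in A2 EPL libraries, against 79.6, 58.8 and 62.1 CPM in D3 naive and 93.4, 80.8 and 82.9 CPM in A2 naive libraries. The groups did not overlap, and the log2 difference was -1.37 ± 0.13 (adjusted p = 9.33e-09). Itgb3 fell by 1.20 ± 0.15 (adjusted p = 5.35e-07), and the log2 difference of Itga8, a receptor subunit for nephronectin, was -1.12 ± 0.22 (adjusted p = 0.000196). Lama1 fell by 0.89 ± 0.15 (adjusted p = 3.26e-05) and Lamc1 by 0.44 ± 0.11 (adjusted p = 0.00131). In A2 alone the Lamc1 difference of -0.36 did not pass (adjusted p = 0.0667).

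Itga9 fell by 1.06 ± 0.10 as a mean of both lines (adjusted p = 8.9e-09), but in A2 alone its log2 difference was -0.23 ± 0.13 (adjusted p = 0.196) and in D3 alone -1.88 ± 0.14 (adjusted p = 6.19e-10). Lamb1 was higher by 0.38 ± 0.10 (adjusted p = 0.00351) and Itgav by 0.41 ± 0.10 (adjusted p = 0.00159), and in A2 alone neither passed. Itga5 was lower by 0.23 ± 0.08 (adjusted p = 0.0211), but in A2 alone it had the opposite sign, at 0.07. Lama5 (0.28 ± 0.15), Lamb2 (0.19 ± 0.08), Itgb1 (0.14 ± 0.07), Itgb5 (-0.10 ± 0.06) and Itga6 (-0.13 ± 0.06) did not pass, with adjusted p between 0.0539 and 0.161. Without the 5 libraries that stand apart Itga6 (-0.16, adjusted p = 0.00205) and Itgb1 (0.13, adjusted p = 0.0175) passed. With every library, Lamb2 passed in A2 alone (0.46, adjusted p = 0.00373) and Itgb5 in D3 alone (-0.23, adjusted p = 0.0236). Of the surrounding lists, 7 of 18 basement membrane partners were higher and 5 lower, and 4 of 15 other ligands were higher and 5 lower. Of 22 adaptors 6 were higher and 9 lower. Of 8 laminin receptors outside the integrins 5 were higher and 2 lower, and of 6 tetraspanins 2 were higher and 2 lower. Over all genes 27.1% were higher and 24.1% lower. Fermt1 (1.87 ± 0.13), Sdc2 (1.36 ± 0.14), Frem2 (1.03 ± 0.14) and Spp1 (-1.47 ± 0.05) had the largest differences of their lists among genes of at least 5 CPM.

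**Figure D4:**
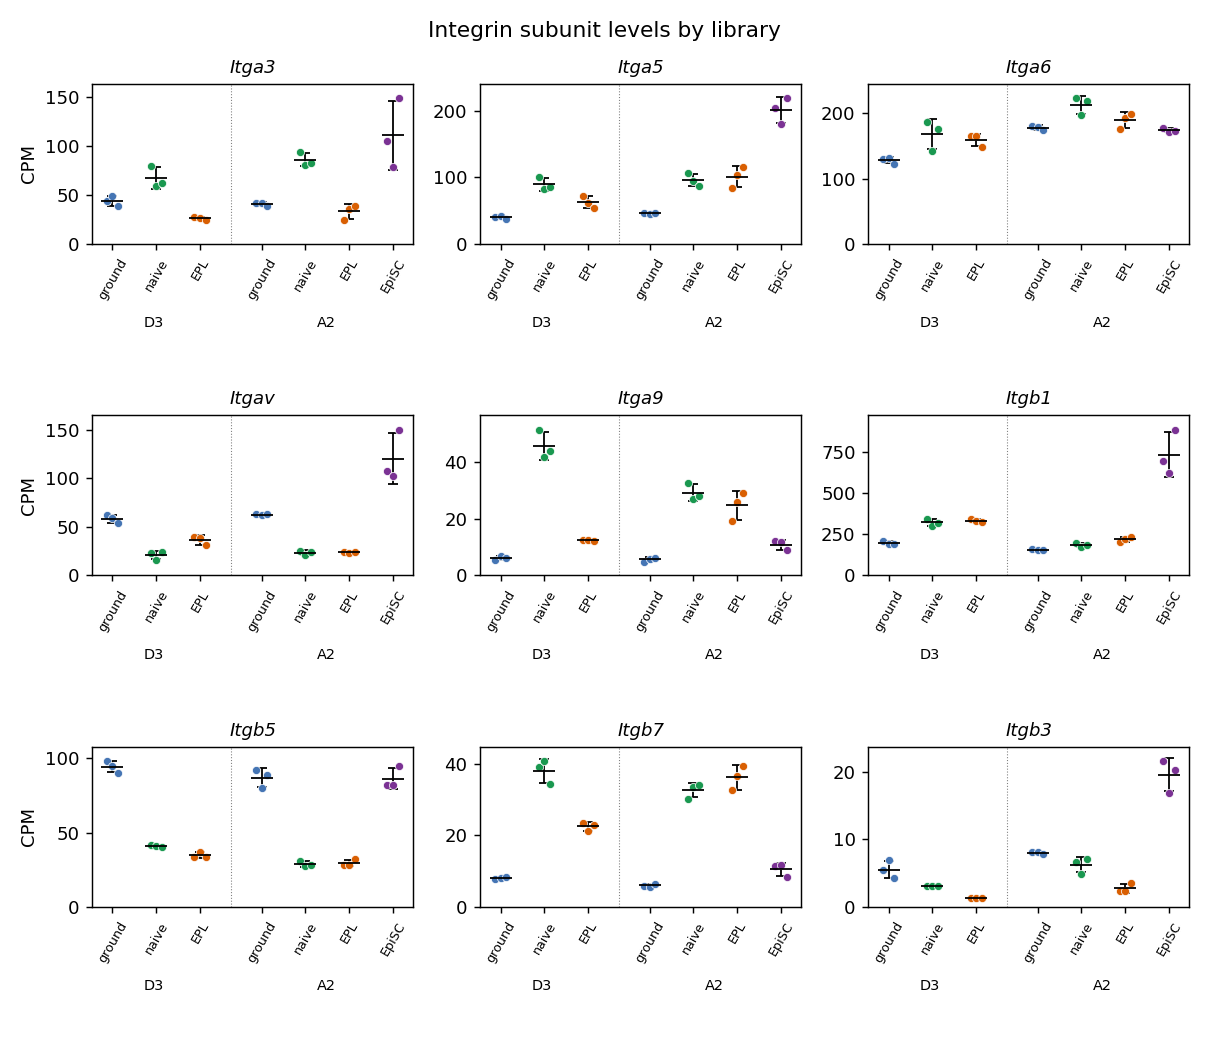
CPM of 9 integrin subunits in each library (points), by stage within the lines D3 and A2, with the group mean and SD (bars, n = 3); each panel has its own axis from 0. Itga9 and Itgb7 peak in naive or EPL cells, Itgav and Itgb5 are low there, and Itgb1 is highest in A2 EpiSCs.

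EpiSCs expressed more of most laminin chains and integrin subunits than EPL cells of the same line. Of 34 tested members 25 were called higher and 3 lower, where 39.1% of all genes were higher and 31.3% lower, and the median log2 difference was 1.67 over the members and 0.07 over all genes. Markers of other cells moved with this comparison. The 10 fibroblast markers summed to between 2502 and 3277 CPM in EpiSC libraries and between 7.12 and 14.8 CPM in all other libraries, and all 10, Col1a1, Col1a2 and Col3a1 among them, had at least 1 CPM in EpiSCs. The 11 markers of primitive and parietal endoderm summed to between 1520 and 2027 CPM in EpiSCs and between 148 and 402 CPM elsewhere, and all 11 had at least 1 CPM in EpiSCs. Most of the EpiSC sum was Sparc (912 CPM) and Col4a1 (621 CPM), which are also in the list of basement membrane partners. The rest averaged between 3.05 CPM (Foxa2) and 49.9 CPM (Dab2) in EpiSCs, each more than in any other group. The 6 pluripotency markers summed to between 1443 and 1947 CPM in EpiSCs and between 3268 and 4919 CPM elsewhere. The 5 primed and formative markers summed to 166 to 193 CPM in EpiSC libraries. In A2 ground libraries they summed to 165 to 180 CPM, and in A2 EPL libraries to 838 to 980 CPM. Dnmt3b, Otx2 and Pou3f1 averaged less in EpiSCs than in A2 EPL cells, and Fgf5 and Krt18 more. Most of the A2 ground sum was Dnmt3b, at 165 CPM, and this gene averaged less in EpiSCs, at 90.4 CPM. The rest averaged more in EpiSCs than in A2 ground cells. Otx2 had 13.2 against 1.48 CPM and Pou3f1 19.7 against 0.567 CPM. Fgf5 had 12.7 against 0.0996 CPM and Krt18 40.4 against 4.18 CPM. The 5 naive and ground-state markers summed to 788 to 971 CPM in EpiSC and 1653 to 1758 CPM in A2 EPL libraries. Klf4 and Tbx3 averaged more in EpiSCs, and Esrrb, Tfcp2l1 and Zfp42 less. EpiSC library 3 had the highest fibroblast (3277 CPM) and endoderm sums (2027 CPM) and the lowest pluripotency sum (1443 CPM) of the 3. Lamb1, Lama1, Itgb1 and Itgav were highest in that library, but not every raised member was. Itgb3 had 21.6, 16.9 and 20.3 CPM and Itgam 8.455, 6.53 and 7.67 CPM in EpiSC libraries 1, 2 and 3. The part of such cells in the EpiSC results was not tested, and it touches every EpiSC value below. The 6 blood markers summed to at most 4.87 CPM in EpiSCs and 4.61 CPM elsewhere. In EpiSCs Cd3e had 2.90 CPM, Ptprc 0.33 CPM, Tyrobp 0.17 CPM and Cd48 no count. The 5 trophectoderm markers summed to 27.4 to 29 CPM in EpiSCs, most of it Eomes (22.3 CPM), and to at most 15.5 CPM elsewhere. The 4 endothelial markers summed to 18.5 to 28.9 CPM in EpiSCs and at most 29.4 CPM elsewhere, with Cdh5 at 3.24 CPM in EpiSCs and at most 0.297 CPM elsewhere.

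Lamb1 had 389, 341 and 505 CPM in EpiSC libraries, against 96.5, 130 and 113 CPM in A2 EPL libraries. The ranges were far apart, and the log2 difference was 1.86 ± 0.14 (adjusted p = 1.46e-10). Lama1 rose by 1.62 ± 0.21 (adjusted p = 5.34e-07), to 228, 186 and 270 CPM in EpiSC libraries, against 48.1, 94.4 and 80.1 CPM in A2 EPL libraries. Lamb2 rose by 0.96 ± 0.11 (adjusted p = 7.62e-08) and Lama3 by 1.57 ± 0.20 (adjusted p = 3.24e-07). Chains with little signal elsewhere joined in: Lama4, found in vessel walls, had 18.0, 16.8 and 18.8 CPM in EpiSC libraries, against 1.77, 1.117 and 0.785 CPM in A2 EPL libraries, and Lama2, the muscle and nerve chain, had 4.96, 3.79 and 8.003 CPM in EpiSC libraries, against 0.0591, 0.223 and 0.181 CPM in A2 EPL libraries. Their log2 differences were 3.86 ± 0.23 and 5.11 ± 0.45 (adjusted p = 1.62e-12 and 1.32e-09). Lamc1 (-0.20 ± 0.15, adjusted p = 0.243) and Lama5 (0.18 ± 0.20, adjusted p = 0.435) did not pass, and the sign of both depended on the scaling or the libraries used. Without the 5 libraries that stand apart Lamc1 was called lower (-0.39, adjusted p = 4.57e-05). The ratio of Lamc1 to Lamb1 per length was 1.67 ± 0.16 in EpiSCs, against 6.89 ± 0.43 in A2 EPL cells.

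Itgb1 had 692, 619 and 883 CPM in EpiSC libraries, against 201, 221 and 234 CPM in A2 EPL libraries. Every EpiSC library was above every EPL library, with a log2 difference of 1.74 ± 0.10 (adjusted p = 5.78e-13). Itgav had 108, 102 and 150 CPM in EpiSC libraries, against 24.5, 23.5 and 24.3 CPM in A2 EPL libraries (2.32 ± 0.14, adjusted p = 2.01e-12), and Itgb5 82.1, 82.1 and 94.5 CPM in EpiSC libraries, against 28.4, 28.3 and 32.2 CPM in A2 EPL libraries (1.54 ± 0.08, adjusted p = 1.84e-13). Both vitronectin receptor subunits were thus without overlap. Itgb3 rose by 2.84 ± 0.17 (adjusted p = 2.64e-12), Itga7, a muscle laminin receptor subunit, by 2.52 ± 0.25 (adjusted p = 6.64e-09), Itga3 by 1.74 ± 0.18 (adjusted p = 1.17e-08), Itga5 by 0.99 ± 0.11 (adjusted p = 5e-08), Itga8 by 1.28 ± 0.29 (adjusted p = 0.000446) and Itga4 by 1.43 ± 0.25 (adjusted p = 2.74e-05). Itga2b rose by 2.30 ± 0.29, Itgam by 2.04 ± 0.20 and Itga10 by 1.91 ± 0.30, the last pair with uncertain counts (adjusted p = 2.79e-07, 8.02e-09 and 5.9e-06). Itga6 did not pass (-0.12 ± 0.08, adjusted p = 0.191), but was called lower without the 5 libraries that stand apart (-0.17, adjusted p = 0.0115).

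A pair of subunits without counts in A2 ground-state cells had their highest levels in EpiSCs. Itga2, a collagen receptor subunit, had 164 counts over the 3 EpiSC libraries and 2 over the 3 A2 EPL libraries, a ratio of 59.1 with a 95% Poisson interval of 16.1 to 492, which covers counting error only. Itgb8, whose dimer with αv releases active TGF-β, had 238 and 13 counts in those groups, a ratio of 13.2 (7.57 to 25.2). In A2 ground-state libraries neither had a count, so that EpiSC levels were at least 44.2-fold higher for Itga2 and at least 64.1-fold higher for Itgb8, taking 3 counts over the ground-state group as the floor. Itgb8 was also above its ground-state level in D3 EPL cells, with 55 counts against 1 in D3 ground-state cells, a ratio of 57.1 (9.83 to 2295). In A2 it was called higher than in the ground state as well, from few counts. It had 13 counts in A2 EPL (edgeR adjusted p = 0.00101) and 8 in A2 naive cells (adjusted p = 0.00965).

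The 3 members lower in EpiSCs than in EPL cells were Itgb7, Itga9 and Itgal. Itgb7 had 11.6, 11.7 and 8.42 CPM in EpiSC libraries, against 32.7, 36.6 and 39.5 CPM in A2 EPL libraries (-1.78 ± 0.11, adjusted p = 2.58e-12). Itga9 had 11.99, 11.7 and 8.80 CPM in EpiSC libraries, against 19.1, 26.0 and 28.9 CPM in A2 EPL libraries (-1.19 ± 0.14, adjusted p = 1.36e-07). Itgal, the leukocyte subunit that pairs with Itgb2, fell by 0.76 ± 0.16 (adjusted p = 0.000155). For Itgb7 and Itga9 the libraries of EpiSCs and EPL cells did not overlap.

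Most of the surrounding genes were also higher in EpiSCs than in EPL cells. Over all genes 39.1% were higher and 31.3% lower. Of 18 basement membrane partners 12 were higher and 2 lower, with Col4a5 at 6.03 ± 0.25, Col4a2 at 4.74 ± 0.26 and Col4a1 at 4.09 ± 0.22. Col4a1 is also 1 of the endoderm markers above, and it averaged 621 CPM in EpiSCs, against 36.4 CPM in A2 EPL cells. Of 15 other ligands 13 were higher and 2 lower. The matrix proteins Tnc and Postn averaged 549 and 30.2 CPM in EpiSCs, against 0.0986 and 0 CPM in A2 EPL cells, and Postn is also 1 of the fibroblast markers. Of 22 adaptors 13 were higher and 3 lower, with Parva, which binds integrin-linked kinase, at 4.60 ± 0.18 and Zyx at 2.10 ± 0.14. Of 8 laminin receptors outside the integrins 5 were higher and 3 lower, with Sdc3 at 4.72 ± 0.20, and of 6 tetraspanins 4 were higher and none lower, with Cd151, which binds laminin-receptor integrins, at 0.93 ± 0.09.

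Against ground-state A2 cells, EpiSCs had 25 members higher and 3 lower, where 39.1% of all genes were higher and 34.1% lower, and the median log2 difference was 1.37 over the members and 0.04 over all genes. This comparison shares the EpiSC libraries with the one above, so the calls are not independent of each other. Lamb1 had a log2 difference of 3.56 ± 0.16 (adjusted p = 7.28e-15), with 389, 341 and 505 CPM in EpiSC libraries, against 35.4, 34.8 and 34.3 CPM in A2 ground libraries. Lama2 (4.49 ± 0.41, adjusted p = 1.68e-09) and Lama4 (3.51 ± 0.22, adjusted p = 2.2e-12) rose too. Lamc1 was lower by 1.36 ± 0.15 (adjusted p = 4.29e-08), with 572, 503 and 628 CPM in EpiSC libraries, against 1531, 1360 and 1465 CPM in A2 ground libraries. Lama1 was higher by 0.62 ± 0.20 (adjusted p = 0.00974), a call that was lost without EpiSC library 3 (0.46, adjusted p = 0.0645). Lamb2 (0.20 ± 0.11, adjusted p = 0.0889) and Lama5 (-0.22 ± 0.20, adjusted p = 0.332) did not pass. Lama5 was called lower without the 5 libraries that stand apart (-0.42, adjusted p = 0.00236).

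Of the integrins, Itgb1 (2.23 ± 0.10, adjusted p = 7.79e-15), Itga5 (2.12 ± 0.12, adjusted p = 2.61e-13), Itga3 (1.45 ± 0.17, adjusted p = 1.28e-07), Itgb3 (1.28 ± 0.15, adjusted p = 9.42e-08) and Itgav (0.94 ± 0.13, adjusted p = 1.06e-06) were higher in EpiSCs than in ground-state cells. So were Itga7 (3.15 ± 0.26), Itga2b (2.18 ± 0.28), Itga4 (1.63 ± 0.25), Itgam (3.58 ± 0.24) and Itga10 (1.53 ± 0.28). Itgb5 had 82.1, 82.1 and 94.5 CPM in EpiSC libraries, against 92.3, 79.8 and 89.1 CPM in A2 ground libraries. The groups overlapped, and the log2 difference was -0.01 ± 0.08 (adjusted p = 0.871). Itga6 likewise did not pass, at 178, 172 and 174 CPM in EpiSC libraries, against 182, 179 and 174 CPM in A2 ground libraries (-0.03 ± 0.08, adjusted p = 0.736). When libraries were scaled to the total count, Itgb5 (0.25, adjusted p = 0.00619) and Itga6 (0.23, adjusted p = 0.0207) were instead called higher, as was Lamb2 (0.47, adjusted p = 0.000823). That scaling put the median of all genes at 0.30, against 0.04 with TMM.

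The lines differed in the level of several chains. Averaged over ground, naive and EPL stages, 3 of 34 tested members were higher in D3 than in A2 and 12 were lower, where 20% of all genes were higher and 20.7% lower, and the median log2 difference was -0.14 over the members and -0.00 over all genes. No laminin chain was higher in D3, and 6 of 11 were lower. Lamc1 was lower by 0.75 ± 0.09 (adjusted p = 2.99e-07), and within ground, naive and EPL stages the log2 differences were -0.81 ± 0.15, -0.64 ± 0.15 and -0.80 ± 0.15. Lama3 was lower by 1.01 ± 0.13 (adjusted p = 2.22e-06), but in naive cells its difference of -0.34 did not pass (adjusted p = 0.261). Lama5 (-0.35 ± 0.12, adjusted p = 0.0221), Lamb1 (-0.35 ± 0.09, adjusted p = 0.00194), Itga6 (-0.36 ± 0.05, adjusted p = 2.05e-06) and Itga5 (-0.34 ± 0.07, adjusted p = 0.000221) were lower as well. Of these, Itga6 was called at every stage. Lama5 passed in naive cells only (-0.62 ± 0.21), Lamb1 in ground-state cells only (-1.04 ± 0.16) and Itga5 in EPL cells only (-0.69 ± 0.11).

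The 3 members higher in D3 were Itgb1, Itgal and Itgb5. Itgb1 had 207, 191 and 192 CPM in D3 ground, 344, 299 and 320 CPM in D3 naive and 340, 329 and 323 CPM in D3 EPL libraries, against 158, 156 and 154 CPM in A2 ground, 198, 174 and 185 CPM in A2 naive and 201, 221 and 234 CPM in A2 EPL libraries. The lines did not overlap at any stage, and the log2 difference was 0.57 ± 0.05 (adjusted p = 1.89e-08). Itgal was higher by 0.43 ± 0.09 (adjusted p = 0.000312) as a mean of stages that differ in sign, at 0.93 ± 0.14 in ground, 0.82 ± 0.15 in naive and -0.46 ± 0.16 in EPL cells. Itgb5 was higher by 0.28 ± 0.05 (adjusted p = 2.75e-05), but in ground-state cells its difference of 0.12 did not pass (adjusted p = 0.323). Lama1 (-0.21 ± 0.12), Lamb2 (0.14 ± 0.06), Itga3 (-0.20 ± 0.10) and Itgav (0.11 ± 0.08) did not pass. Without the 5 libraries that stand apart all 4 passed, at -0.23 for Lama1 (adjusted p = 0.000713), 0.17 for Lamb2 (adjusted p = 0.017), -0.22 for Itga3 (adjusted p = 0.00649) and 0.18 for Itgav (adjusted p = 0.00123).

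Whether the lines took the steps alike was tested by the interaction of line and stage. For naive against ground, 1 member was called with a larger rise in D3 and none with a smaller one, where 1.51% of all genes were higher and 1.56% lower, and 6 members had an unadjusted p below 0.05. With DESeq2 the count was 3. The member called was Lamb1, whose log2 difference was 2.35 ± 0.16 in D3 and 1.54 ± 0.15 in A2, a gap of 0.80 ± 0.21 (adjusted p = 0.0404) that was lost under several alternatives. For EPL against ground, 3 members were called with a more positive and 4 with a more negative difference in D3, where 7.25% of all genes were called in the first direction and 6.06% in the second. Lamb1 rose by 2.94 ± 0.16 in D3 and 1.70 ± 0.15 in A2 (gap 1.24 ± 0.21, adjusted p = 0.000371). Lamb2 fell by 1.43 ± 0.11 in D3 and 0.75 ± 0.11 in A2 (gap -0.67 ± 0.16, adjusted p = 0.00505). In ground-state cells Lamb1 was lower in D3 than in A2 (-1.04 ± 0.16, adjusted p = 4.85e-05) and Lamb2 higher (0.41 ± 0.11, adjusted p = 0.008). In naive and EPL cells neither difference between the lines passed. For Lamb1 they were -0.23 ± 0.14 in naive and 0.20 ± 0.14 in EPL cells. For Lamb2 they were 0.27 ± 0.12 in naive (adjusted p = 0.0844) and -0.27 ± 0.11 in EPL cells (adjusted p = 0.0853). The Lamb2 interaction in naive against ground was not called, so its line difference is not placed in the ground state alone.

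The other 5 were integrins. Itga9 had 12.5, 12.5 and 12.2 CPM in D3 EPL and 19.1, 26.0 and 28.9 CPM in A2 EPL libraries, so its difference from the ground state was 1.02 ± 0.16 in D3 and 2.12 ± 0.16 in A2 (gap -1.10 ± 0.22, adjusted p = 0.00171). Itgb7 differed from the ground state by 1.48 ± 0.12 in D3 and 2.59 ± 0.12 in A2 (gap -1.11 ± 0.17, adjusted p = 8.55e-05). Itgal had 5.38, 5.87 and 3.98 CPM in D3 EPL against 14.1, 12.9 and 15.9 CPM in D3 ground libraries, without overlap, and 6.73, 7.65 and 6.397 CPM in A2 EPL against 7.85, 7.90 and 6.74 CPM in A2 ground libraries, with overlap (gap -1.39 ± 0.21, adjusted p = 0.000101). Its partner Itgb2 was lower per length in the ground state, at 0.0433 ± 0.051 RPKM in D3 and 0.1003 ± 0.0662 RPKM in A2, beside Itgal at 2.18 ± 0.234 and 1.14 ± 0.0999 RPKM. Itgav fell less in D3 (-0.67 ± 0.13) than in A2 (-1.38 ± 0.14), with a gap of 0.71 ± 0.19 (adjusted p = 0.0149) that was lost without D3 ground library 3 (0.64, adjusted p = 0.0505). Itga4 rose in D3 (1.87 ± 0.33) and did not pass in A2 (0.20 ± 0.29), a gap of 1.67 ± 0.45 (adjusted p = 0.0138) at levels of at most 1.63 CPM.

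**Figure D5:**
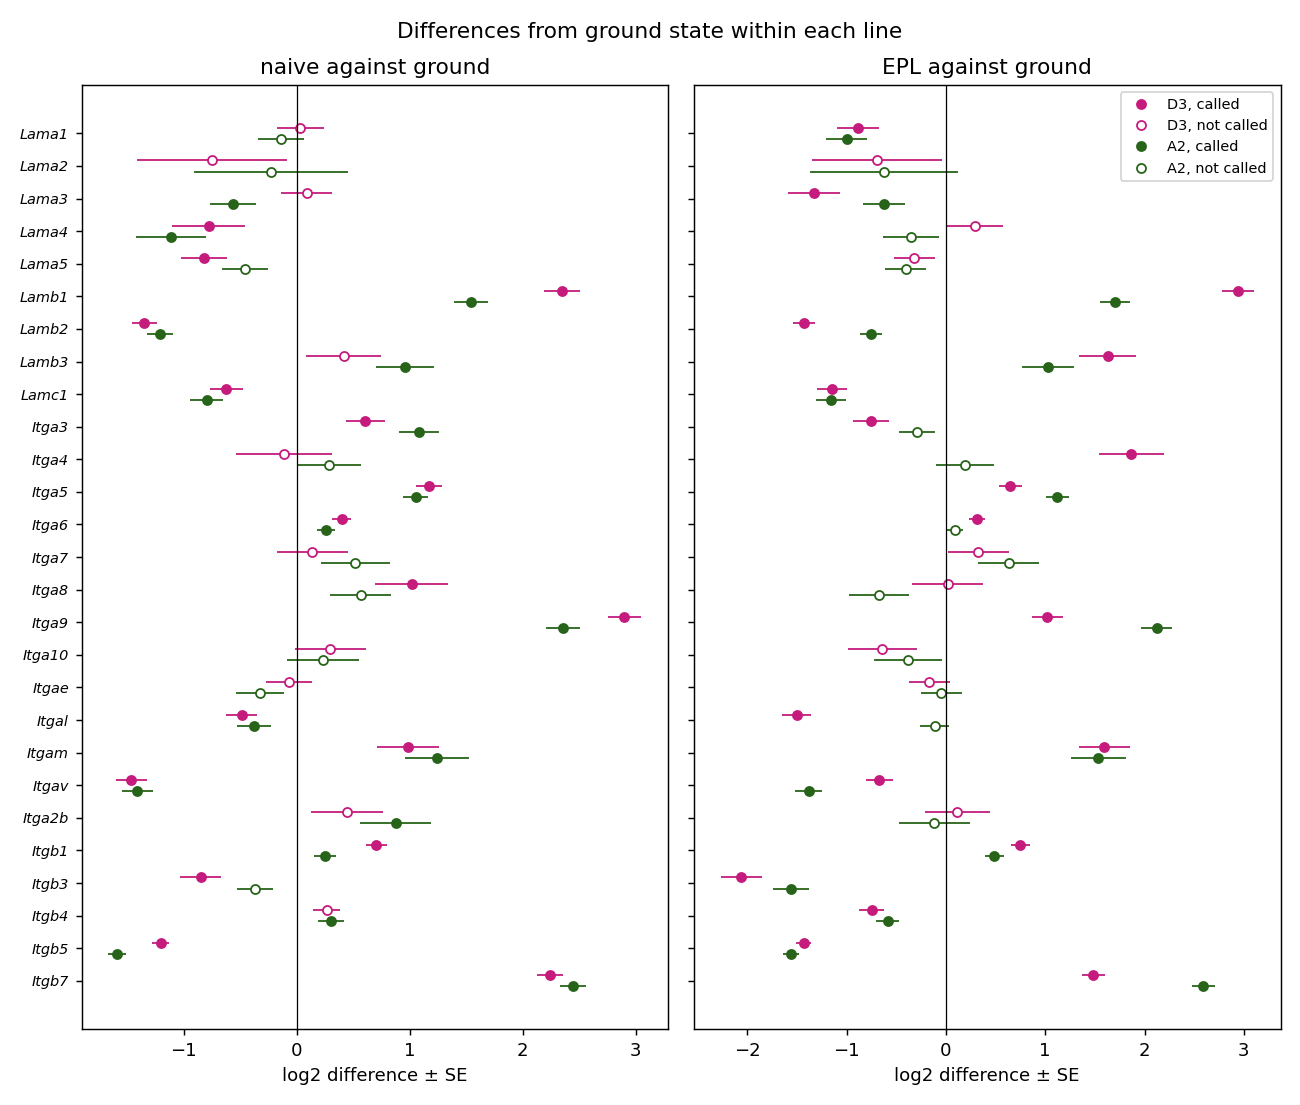
Log2 differences from ground-state cells, with SE, for naive (left) and EPL cells (right) in D3 (upper point of each row) and A2 (lower point). The rows are 27 members with at least 2 CPM in a group, and filled points passed an adjusted p below 0.05. Itga2 and Itgb8 are left out because their counts were 0 to 2 over each ground-state group. D3 and A2 points lie close together for most rows, and in the EPL panel they part for Lamb1, Lamb2, Itga4, Itga9, Itgal, Itgav and Itgb7.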

How the data were processed

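RNA sequencing was done on 21 mouse libraries, 3 for each of 7 groups of line and stage. Column-purified, DNase-treated total RNA went into an Illumina TruSeq preparation, per the labels' protocols. Whether the counting used the strand is not stated. The authors deposited 1 table of raw counts per Ensembl gene and library, which held whole numbers only. Alignment and counting tools named per the submitters' processing notes are HISAT2, SAMtools and featureCounts, with the mouse build GRCm38. Versions and settings are not given in these sources, and reads from overlapping or antisense genes cannot be told apart. All 39396 identifiers were found in GENCODE M21 (GRCm38), which gave exon lengths and overlaps.

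From the counts, filterByExpr (minimum count 10, minimum total 15) kept 16575 genes. Counts were scaled with TMM factors (1.136 to 1.145 in EpiSC, 0.9326 to 1.007 in other libraries) and tested with edgeR 4.0.16 (R 4.3.3), in 1 quasi-likelihood fit with a mean per group over all 21 libraries. The comparisons among ground, naive and EPL cells are means of the differences in D3 and A2, EpiSC comparisons use A2 only, D3 against A2 is the mean over 3 stages, and interactions are the D3 minus the A2 difference. Benjamini-Hochberg adjustment ran over every gene tested, and the threshold was 0.05. RPKM is CPM per kilobase of merged exons, and SDs are over 3 libraries. Folds against a group without counts use a floor of 3 counts per group, and intervals and floors cover counting error only.

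The members and gene lists were chosen with earlier results of these data known. Named with values were members called with an absolute log2 difference of at least 1 and a mean in the higher group of 2 CPM or more, and in every comparison Lama1, Lama5, Lamb1, Lamb2, Lamc1, Itga3, Itga5, Itga6, Itgav, Itgb1 and Itgb5. A member that met this rule is counted in the totals and not reported here by name. Examples from the lists were called genes of at least 5 CPM with large differences. Other members given with values, such as those called in an interaction, partners of a named subunit, Lamb3 and Itgal, were picked after their values were seen. In the list of other ligands, 2 symbols are older names of members already present and Vtn was not tested. Alternatives were other scalings, no filter and a stricter filter, a replicate block, DESeq2 1.42.0, each line alone, each library left out, and the 5 libraries that stand apart left out, the last chosen after seeing the data. The fit was tested on simulated data.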

Additional observations from a re-analysis of the deposited data

Results flagged for a closer look

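The following 8 differences between the lines passed the test of the interaction itself (edgeR, adjusted p below 0.05), each given as the log2 difference in D3 minus that in A2. In naive against ground, Lamb1 had a value of 0.8 ± 0.21 (SE, adjusted p = 0.0404). That call was lost with total-count scaling, with a replicate block, and when any single ground-state library was left out. In EPL against ground, Lamb1 had 1.24 ± 0.21 (adjusted p = 0.000371), Lamb2 had -0.67 ± 0.16 (adjusted p = 0.00505) and Itga4 had 1.67 ± 0.45 (adjusted p = 0.0138). Itga9 had -1.1 ± 0.22 (adjusted p = 0.00171), Itgal had -1.39 ± 0.21 (adjusted p = 0.000101), Itgav had 0.71 ± 0.19 (adjusted p = 0.0149) and Itgb7 had -1.11 ± 0.17 (adjusted p = 8.55e-05). For Itga9, the D3 minus A2 difference was 0.65 ± 0.13 in naive and -0.996 ± 0.14 in EPL cells, both called. For Itgal it was 0.93 ± 0.14 in ground and -0.46 ± 0.16 in EPL cells, both called. What sets these differences was not tested.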

How the results depend on the processing

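Of 3760 alternative values of 131 named results, 3621 kept their direction and their side of the threshold, 44 lost and 62 gained a call, and 33 changed sign. The number of members called in the line by naive interaction was 1, but 0 with total-count scaling, 3 without a filter on low counts, 3 with DESeq2, 4 without the 5 libraries that stand apart, and 0 to 3 with 1 library left out. The line by EPL interaction had 7 members called, and 12 without those 5 libraries. EPL against naive had 21 members called, and 8 in A2 alone. With 1 library left out, the counts were 21 to 25 in naive against ground, 22 to 25 in EPL against ground, 19 to 23 in EPL against naive, 26 to 28 in EpiSC against ground, 14 to 17 in D3 against A2 and 6 to 9 in the line by EPL interaction. The causes were not tested.

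The design text of the series calls the samples paired without saying what pairs them. Replicate numbers were not used as pairs here: over 63 pairs of libraries with the same number in different groups, the correlation of their deviations from the group means was -0.2 to 0.363 with a median of -0.019. With a replicate block the line by naive interaction had 0 members called in place of 1 (Lamb1 at 0.8, adjusted p = 0.058), and the other counts stayed within 1.5 times.

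Without a filter on low counts, calls were gained for Lama5 in EPL against naive (0.28, adjusted p = 1.74e-05) and EpiSC against ground (-0.21, adjusted p = 0.0278), and for Lama1 (-0.2, adjusted p = 0.000554) and Itga3 (-0.19, adjusted p = 0.00406) in D3 against A2.

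Some values changed sign. With total-count scaling, Lama1 in naive against ground was 0.01, Lamc1 and Itga6 in EpiSC against EPL were 0.01 and 0.08, and Lama5, Itga6 and Itgb5 in EpiSC against ground were 0.04, 0.23 and 0.25. That scaling put the median log2 difference of all genes at 0.27 in EpiSC against EPL and 0.30 in EpiSC against ground, where TMM had 0.07 and 0.04. In EPL against naive, Itga5 was 0.07 and Itgb5 0.03 in A2 alone, and Lamb2 was -0.08 in D3 alone. Lama1 in naive against ground was 0.03 in D3 alone and 0.12 without the 5 libraries, where Lama5 in EpiSC against EPL was -0.11 and Itgav in the line by naive interaction 0.03.

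With 1 library left out, values that changed sign ranged between -0.12 and 0.03 for Lama1 in naive against ground, -0.03 and 0.33 for Lama5 in EpiSC against EPL, -0.1 and 0.04 for Itgb5 in EpiSC against ground, and -0.13 and 0.11 for Itgav in the line by naive interaction. In the line by EPL interaction they ranged between -0.12 and 0.33 for Lama1, -0.07 and 0.22 for Lama5, and -0.1 and 0.12 for Lamc1. Calls were lost with some library left out for Lama5 in EPL against ground (adjusted p up to 0.116), Lama5 in D3 against A2 (up to 0.0619), Itga5 in EPL against naive (up to 0.0696) and Lamb1 in the line by naive interaction (up to 0.11). Outside EpiSCs, group means lay between 0.334 and 1.545 CPM for Itga4 and Itga1 and were at most 0.566 CPM for Itgb2, Itga11 and Lamc3. With 3 libraries per group, small differences of these genes are not detectable at this depth. For Itgb2, Itga11 and Lamc3 large differences may be missed too.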
